A study of Mus musculus with 6 samples.

Results

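The S100 genes encode small calcium-binding proteins, and 10 of them were followed here in mouse mammary epithelial cells (MECs) that lack p53, in pools from mice transiently exposed to tamoxifen and in pools from sham treated (control) mice. The members were taken by gene symbol from the deposited table: S100a1, S100a4, S100a6, S100a8, S100a9, S100a10, S100a11, S100a13, S100a14 and S100a16. A probeset with a single gene symbol was found for 8 of the 10 genes, 1 probeset each, among the 22369 probesets and 17418 named genes of the array. S100a11 and S100a16 have no such probeset and are not analysed here. The set was proposed with results of this comparison already known, S100a14 among them, and S100a14 is also one of the genes that the study selected on these same arrays. The differences between the groups are therefore given as a description of the 8 genes and support nothing beyond it.

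S100 proteins carry a pair of EF-hand calcium-binding loops and mostly act as dimers. Inside the cell, calcium lets them grip partner proteins such as annexins, myosin and cytoskeletal linkers. Some leave the cell by an unconventional route and act as signals on receptors such as TLR4 and RAGE. In breast tissue and breast tumors they are known as products of epithelial cells, of stromal cells and of infiltrating leukocytes, depending on the member. Most S100 genes lie side by side in a cluster, which in the mouse is on chromosome 3.

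Donor tissue came from p53-null Balb/c females 8 weeks old, and duct fragments were placed in the cleared inguinal fat pads of p53 WT Balb/c hosts, so that the transplanted tissue lacked p53 while the hosts that supplied the fat pad and the circulating cells did not. The tamoxifen hosts carried a pellet with 5 mg of this estrogen receptor modulator for 13 weeks and were sampled 4 weeks after its removal, while control hosts received a sham pellet. Every host of both groups was given 100 ug of 17-beta-estradiol (E2) 8 h before collection, so both groups are E2 treated. In the labels the hosts are 8 weeks old when the pellet goes in, while clearing at 3 weeks, transplantation 5 weeks later and 8 weeks of growth in the same labels add up to 16 weeks. The paper also states a host age of 16 weeks at the pellet. Each group had 3 pools, of 3 to 5 mice each by the sample labels and 5 by the series text, and each pool was run on 1 array. The deposited values are linear intensities, one for each probeset and array, with means of 395 to 403 over the 6 arrays. The epithelial markers Krt18, Epcam and Acta2 lay in the top 1% of probesets (percentiles 99.9, 99.7 and 99.7), and so did the fibroblast marker Dcn (99.97) and the endothelial marker Cdh5 (99.6). Since the RNA is from whole pools, fewer cells of a type and less RNA per cell cannot be told apart.

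The stretches of DNA just upstream of 4 of the genes are printed to show what the promoters of neighbouring S100 genes have in common and where they differ. S100a4 had the largest increase of the 8 genes, S100a6 is its close neighbour on the chromosome, and S100a8 with S100a9 encodes a single protein complex. The sequences are from RefSeq (mouse build GRCm38.p6), run 5′ to 3′ on the strand of the gene, and end at the base before the annotated transcript start. Capitals mark the letters TATAAA, the core of a TATA box, and AGGTCA, the half-site of an estrogen response element.
S100a4 (chr3:90603670-90603769, + strand): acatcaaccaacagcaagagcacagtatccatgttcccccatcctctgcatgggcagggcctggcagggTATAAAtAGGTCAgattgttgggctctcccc
S100a6 (chr3:90612794-90612893, + strand): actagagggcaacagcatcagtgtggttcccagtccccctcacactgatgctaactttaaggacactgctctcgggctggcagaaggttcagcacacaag
S100a8 (chr3:90668971-90669070, + strand): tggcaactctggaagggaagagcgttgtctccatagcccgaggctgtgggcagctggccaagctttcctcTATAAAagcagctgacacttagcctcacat
S100a9 (chr3:90695722-90695821, - strand): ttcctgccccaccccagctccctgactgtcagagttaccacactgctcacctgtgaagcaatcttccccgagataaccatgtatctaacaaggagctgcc
In S100a4 the TATA letters began 31 bases and the half-site 24 bases before the start, on the same strand and separated by 1 base. In S100a8 the TATA letters began 30 bases before the start. The 100 bases of S100a6 and of S100a9 held neither. Among 32851 stretches of the same length and place in the promoter table, searched on both strands, 5.56% held TATAAA and 5.88% held AGGTCA. The full estrogen response element, GGTCA and TGACC with any 3 bases between them, was in 0.0304% of all stretches, and the AP-1 motif TGANTCA in 2.73%. Neither was found in the 6 measured genes that have an entry, which are these 4 with S100a1 and S100a13. A match is a string of letters and was not tested as a binding site. S100a10 and S100a14 have no entry.

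S100a14 was lower in every tamoxifen pool. It encodes an S100 protein of epithelia whose calcium-binding loops have partly lost the residues that hold the ion. Controls 1, 2 and 3 had intensities of 167, 151 and 177, and the tamoxifen pools had 83.4, 83.4 and 91.3. The highest tamoxifen pool lay well below the lowest control pool, and the tamoxifen pools lay close together. The means were 165 ± 13.3 (SD, n = 3 pools) and 86.1 ± 4.56 (SD, n = 3), a level 1.91-fold higher in controls, or a log2 difference, tamoxifen minus control, of -0.94 (SE 0.09).
In the limma fit across all 22369 probesets, S100a14 ranked 34th by p-value and was the 1 of the 8 genes past an adjusted p of 0.05 (0.0178, Benjamini-Hochberg), while 0 of the 8 passed upward. Over all probesets 0.389% passed, 0.107% downward and 0.282% upward. At an unadjusted p of 0.05, S100a14 passed downward and S100a4 upward, beside 5.87% and 6.55% of all probesets. Since the gene was known to be in that selection, nothing is read from the count. With any 1 array left out, the log2 difference lay between -1.0001 and -0.88 and the adjusted p between 0.0575 and 0.0957, so that the call was lost each time. It was also lost by the methods' t-test (adjusted p = 0.118) and with the replicate number as a block (adjusted p = 0.0829). A permutation test of 3 pools against 3 cannot give an exact p under 0.1.
Lists of epithelial markers differed in direction. Of 8 measured genes of a luminal epithelial list, 7 had a negative log2 difference, with a median of -0.11, and 5 had groups that did not overlap, all lower, beside 11.2% of all probesets. Their summed intensity was 42044 to 43174 in controls and 39716 to 41452 after tamoxifen. A list of luminal progenitor markers summed to 13300 to 16863 in controls and 10892 to 12407 after tamoxifen. Of its 6 genes 2 were lower and 1 higher without overlap, beside 11.2% and 9.79% of all probesets. The 9 basal markers had a median log2 difference of 0.02, with sums of 17380 to 21220 and 17635 to 18931. In this list Krt5, Krt14, Krt17 and Trp63 had negative differences (-0.29, -0.14, -0.30 and -0.26). Acta2, Myh11, Oxtr, Mylk and Cnn1 had positive ones (0.02, 0.29, 0.25, 0.18 and 0.16). Without overlap, 2 of the 9 were lower and 2 higher, beside 11.2% and 9.79% of all probesets. The 4 measured hormone-sensing luminal markers had a median log2 difference of 0.13, with sums of 3765 to 4558 and 4030 to 4823. Without overlap 1 of them was lower and 1 higher. The 7 measured proliferation genes all had negative differences, 6 of them without overlap, beside 11.2% of all probesets. Their sum was 1709 to 3726 in controls and 930 to 1377 after tamoxifen. In these 5 lists 0 genes passed the adjusted threshold by limma in either direction. At an unadjusted p of 0.05 there were 2 lower in the luminal list, 3 lower and 1 higher in the progenitor list and 2 higher in the basal list. There were 1 of each in the hormone-sensing list and 6 lower in the proliferation list. The shares of all probesets were 5.87% lower and 6.55% higher. The part of these lists in the S100a14 difference was not tested.

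**Figure D1:**
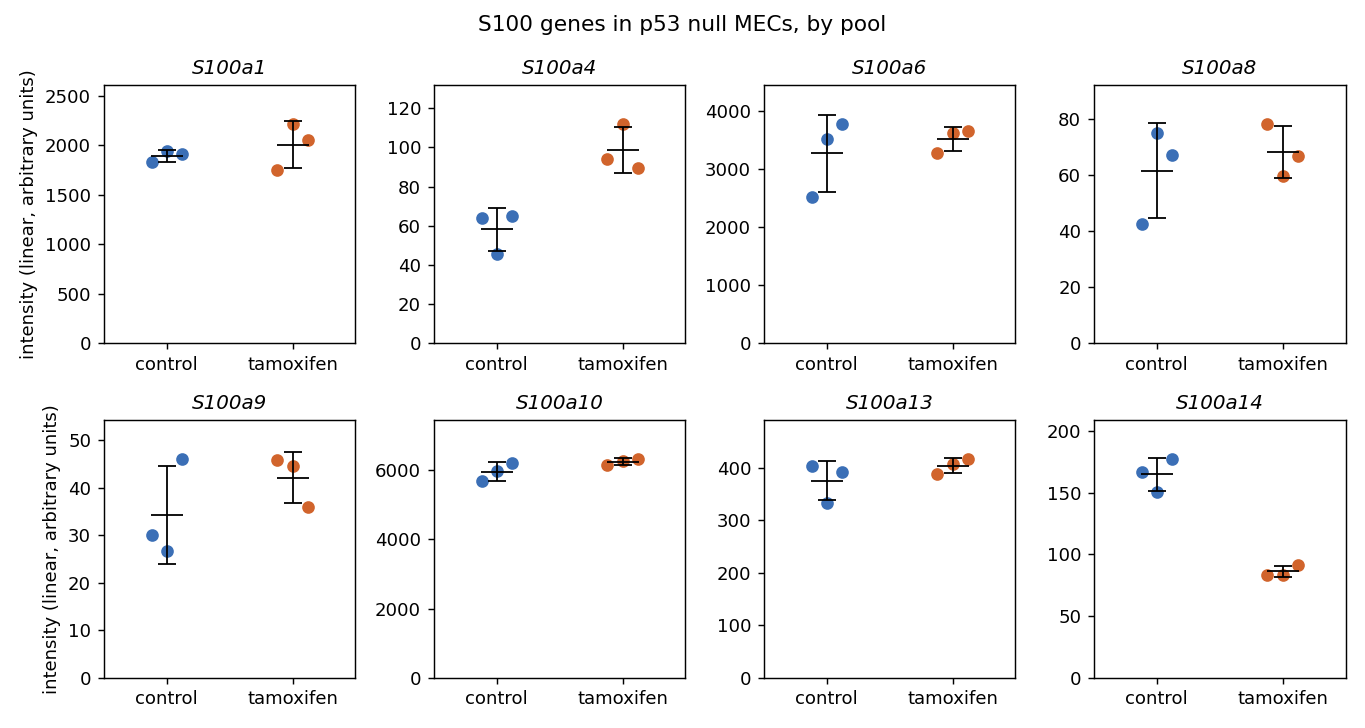
Linear intensity (arbitrary units, axis from 0) of the 8 measured S100 genes in 3 control pools (blue) and 3 tamoxifen pools (orange). Points are pools, the long bar is the mean and the whiskers are 1 SD. The groups are apart in S100a14, at 151 to 177 against 83.4 to 91.3, and in S100a4, and overlap in the other 6 genes.

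S100a4 was higher in every tamoxifen pool, without passing the adjusted threshold. It encodes metastasin, which binds non-muscle myosin in motile cells and is abundant in fibroblasts and leukocytes. Its intensity was 64.2, 45.5 and 64.9 in the controls and 94.2, 112 and 89.6 after tamoxifen. All 3 tamoxifen pools lay above all 3 controls, with tamoxifen 2 the highest. The means were 58.2 ± 10.98 and 98.6 ± 11.8 (SD, n = 3 pools each), a log2 difference of 0.77 (SE 0.17, 95% interval 0.37 to 1.17) and an adjusted p of 0.148 from limma.
S100a4 and S100a14 were the 2 of the 8 genes whose groups did not overlap, 1 higher and 1 lower, beside 21.0% of all probesets (9.79% higher and 11.2% lower). S100a4 is dim, at the 38.4th percentile of mean intensity. An offset of 32 on all intensities left a log2 difference of 0.54, and with 1 array left out it was 0.61 to 0.86.
The 6 measured lymphocyte markers summed to 1691 to 2352 in controls and to 1762, 4368 and 1399.8 in tamoxifen 1, 2 and 3, so tamoxifen 2 stood apart on this list, and without that pool the S100a4 difference was 0.68 (adjusted p = 0.236). The 9 macrophage markers summed to 6240 to 7042 and 6048 to 8433, and the 9 fibroblast markers to 23768 to 24570 and 23518 to 25444. The groups overlapped on each of these 3 sums. The 5 measured mast cell markers all had positive log2 differences, with a median of 0.42 and 3 higher without overlap, beside 9.79% of all probesets, and their sums were 1272 to 1436 and 1715 to 1895. By limma 0 genes of these 4 lists passed the adjusted threshold. At an unadjusted p of 0.05, 3 mast cell markers were higher and 1 fibroblast marker lower, beside 6.55% and 5.87% of all probesets. The 6 endothelial markers were all higher without overlap, beside 9.79% of all probesets, with a median log2 difference of 0.21. Of these markers 0 passed the adjusted threshold and 2 an unadjusted p of 0.05, beside 6.55% of all probesets higher. Their part in the S100a4 difference was not tested.

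S100a8 and S100a9, whose proteins pair to form calprotectin, the antimicrobial complex of neutrophils and monocytes, were dim and scattered. The intensity of S100a8 was 42.4, 74.9 and 67.1 in controls and 78.1, 59.6 and 66.7 after tamoxifen. Control 1 was the lowest pool and the other 5 pools were mixed between the groups. The log2 difference was 0.18 (SE 0.23, 95% interval -0.37 to 0.73), and it turned to -0.07 without control 1. S100a9 had 30.1, 26.6 and 46.1 in controls and 45.9, 44.6 and 36.0 after tamoxifen, with the highest value in control 3. Its log2 difference was 0.33 (SE 0.22, interval -0.19 to 0.86), and it was 0.17 without control 2 and 0.57 without control 3.
Both intervals reach beyond a log2 difference of 0.7, so a sizeable increase of either gene could not be told from none. Their adjusted p-values by limma were 0.819 and 0.613. Of 12 neutrophil markers 0 passed the adjusted threshold by limma, and 9 had negative log2 differences, with a median of -0.04. The defining marker Ly6g had a mean of 12.1 in controls and 11.3 after tamoxifen, where the 5th percentile of the arrays was 9.69 to 11.1, and Mmp9, the brightest of the list after Ltf, had 190.2 and 175. All 12 summed to 3589 to 5670 in controls and 6478 to 6732 after tamoxifen, higher without overlap, with Ltf the brightest. Mammary epithelium also makes Ltf. Without it the other 11 neutrophil markers summed to 727 to 769 in controls and 686 to 764 after tamoxifen, and the groups overlapped. Ltf itself had a log2 difference of 0.73 (adjusted p = 0.255). It was the 1 marker past an unadjusted p of 0.05, beside 6.55% of all probesets higher.

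S100a10, S100a6, S100a1 and S100a13 had bright or moderate signals and small differences. S100a10 encodes p11, which has lost calcium binding and is held in a complex with annexin A2 at membranes. Its intensity was 5690, 5981 and 6221 in controls and 6141, 6284 and 6327 after tamoxifen. The control 3 value fell among the tamoxifen values, and the log2 difference of 0.07 (SE 0.07, 95% interval -0.09 to 0.23) was the most closely bounded of the 8. After quantile normalization it was 0.01, and without control 1 it was 0.04.
S100a6, calcyclin, a calcium sensor of dividing and epithelial cells, had 2519, 3525 and 3770 in controls and 3277, 3628 and 3653 after tamoxifen. Control 1 was the lowest pool, and the highest pool was also a control. The log2 difference was 0.13 (SE 0.16, interval -0.26 to 0.51), or -0.05 without control 1. Control 1 was also the pool with the highest proliferation sum, 3726 beside 1982 and 1709 in the other controls, and the part of this in its S100a6 and S100a8 values was not tested.
S100a1, best known from heart and skeletal muscle, where it tunes calcium release and uptake, had 1827, 1937 and 1914 in controls and 1754, 2212 and 2056 after tamoxifen. The tamoxifen pools spread to both sides of the controls, with a log2 difference of 0.08 (SE 0.10, interval -0.16 to 0.32), which was 0.17 without tamoxifen 1 and 0.0055 without tamoxifen 2. The 7 skeletal muscle markers summed to 539 to 571 in controls and 557 to 639 after tamoxifen, with 0 past an adjusted or unadjusted p of 0.05. S100a13, which takes part in the release of FGF1 and interleukin 1 alpha, had 403, 332 and 391 in controls and 387, 407 and 416 after tamoxifen, a log2 difference of 0.11 (SE 0.09, interval -0.12 to 0.34). Control 2 was low and the other pools overlapped, and without control 2 the difference was 0.02. Adjusted p-values of the 4 genes by limma were 0.720 to 0.822.

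**Figure D2:**
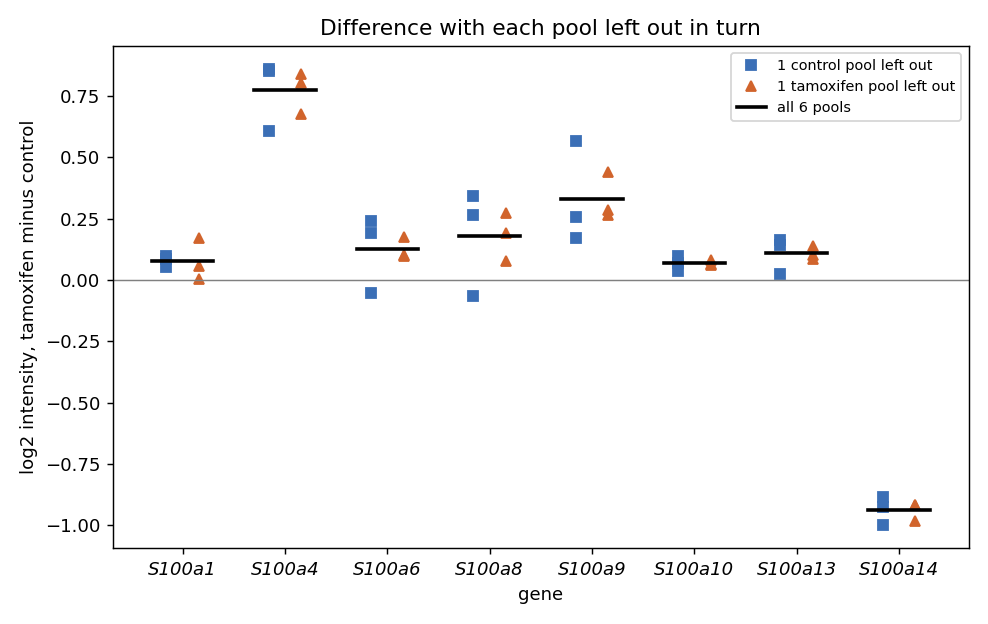
Log2 difference in intensity, tamoxifen minus control, of each of the 8 genes with all 6 pools (black line), with 1 control pool left out (blue squares) and with 1 tamoxifen pool left out (orange triangles). S100a14 stays between -1.0001 and -0.88 and S100a4 between 0.61 and 0.86, whereas S100a6 and S100a8 cross 0 without control 1.

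The 8 genes did not shift as a block. Their median log2 difference was 0.12, 7 positive and 1 negative, where the median of all 22369 probesets was -0.02. Apart from S100a4 the positive values were 0.07 to 0.33, and each of those 6 intervals included 0. The range ran from -0.94 in S100a14 to 0.77 in S100a4, which lie in the same stretch of chromosome 3. By gene order in the RefSeq table, 12 protein coding genes run from S100a1 to S100a9, all 12 of them S100 genes, and 10 were measured. S100a14 is the third in this row, directly after S100a13 with 0.11 and before S100a16. The next measured gene on that side, S100a3, a hair cuticle protein gene, had -0.21 (adjusted p = 0.684). S100a4 is the seventh, and the next gene, S100a5, known from olfactory neurons, had -0.07 (adjusted p = 0.876). The genes next to the start of the row outside the family, Chtop, Snapin and Ilf2, had log2 differences of 0.03, -0.04 and -0.07. Pglyrp4, a peptidoglycan recognition protein gene beyond S100a9, had -0.33 (adjusted p = 0.555).
S100a1 and S100a13 are transcribed away from each other, from annotated starts 105 bases apart, and their promoter windows of the RefSeq table share 204 bases. Their log2 differences were 0.08 and 0.11. The control pools were not ordered alike, as control 2 was the highest of the controls for S100a1 and the lowest for S100a13.

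The 7 other S100 genes with a probeset of their own did not pass the adjusted threshold. By limma 0 rose and 0 fell at an adjusted p of 0.05, with a median log2 difference of 0.06. Only S100b passed an unadjusted p of 0.05, upward, beside 6.55% of all probesets. S100b, the S100 gene of glia and adipocytes, had 144, 144 and 159 in controls and 182, 194 and 186 after tamoxifen. The groups did not overlap, and the log2 difference was 0.34 (SE 0.07, 95% interval 0.16 to 0.51, adjusted p = 0.161). Of 5 measured Schwann cell markers, 3 were higher and 1 lower without overlap, beside 9.79% and 11.2% of all probesets. Their sums were 7756 to 8842 in controls and 9885 to 10611 after tamoxifen, and without Pmp22, the brightest, left out after its values were seen, they overlapped, at 3391 to 3461 and 3261 to 3593. Mbp had a log2 difference of 0.60, Pmp22 one of 0.47 and Ngfr one of 0.13, while Sox10 had -0.27 and Erbb3 -0.37. Of 7 adipocyte markers, 3 were also higher and 1 lower without overlap, with sums of 3042 to 3229.9 and 3084 to 3512. By limma 0 genes of both lists passed the adjusted threshold. At an unadjusted p of 0.05, 2 Schwann and 3 adipocyte markers were higher, beside 6.55% of all probesets. In each list 1 marker was lower, beside 5.87% of all probesets. The part of these markers in the S100b difference was not tested. The remaining 6 genes of this list had log2 differences between -0.21 in S100a3 and 0.30 in S100z. These were -0.03 without tamoxifen 2 and 0.03 without control 2, and S100a7l2 was the dimmest, at 6.82 in controls and 7.11 after tamoxifen.

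**Figure D3:**
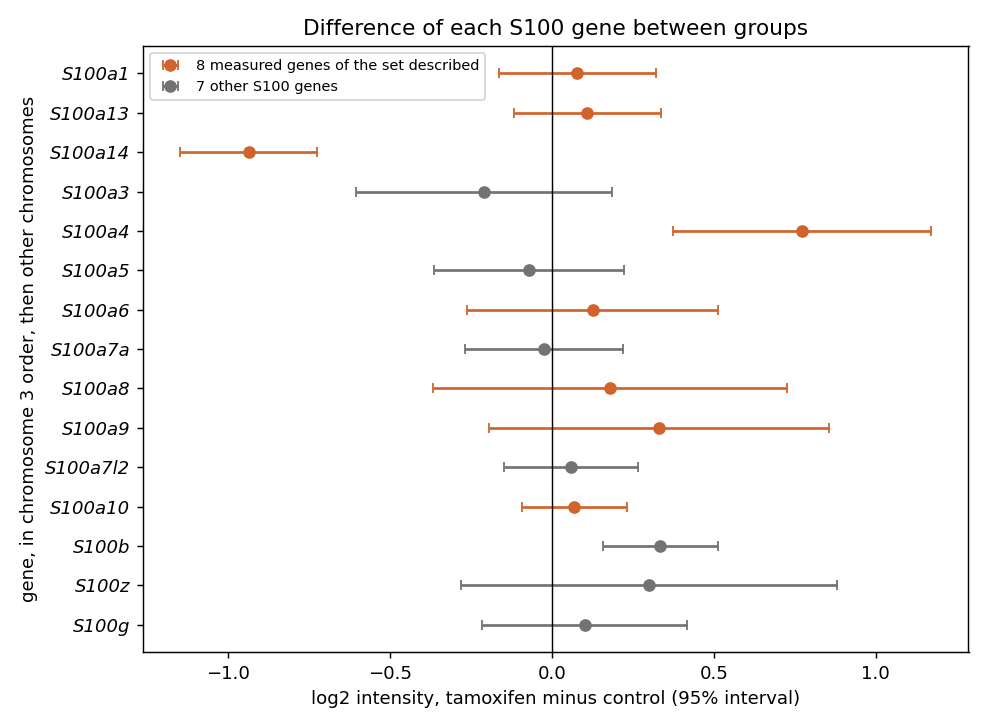
Log2 difference in intensity, tamoxifen minus control, with its 95% interval from the limma fit, for the 8 measured genes described (orange) and 7 other S100 genes (grey), in gene order along chromosome 3 and then on other chromosomes, which hold S100b, S100z and S100g. Intervals of S100a14 (below 0), S100a4 and S100b (above 0) do not include 0, and these intervals are not adjusted for the number of probesets.

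Among the annexins, the membrane-binding proteins that several S100 proteins grip, Anxa8 rose and the known partners of the S100 genes measured here did not pass. Anxa8 had 142, 176 and 134 in controls and 292, 283 and 298 after tamoxifen. Every tamoxifen pool was far above every control, a log2 difference of 0.96 (SE 0.11, adjusted p = 0.0417 from limma), and the adjusted p was 0.17 with the replicate number as a block, 0.172 by the methods' t-test and up to 0.205 with 1 array left out. Of 12 measured annexins, 1 rose and 0 fell, beside 0.282% and 0.107% of all probesets, with a median log2 difference of 0.00. At an unadjusted p of 0.05, 2 were higher and 2 lower, beside 6.55% and 5.87% of all probesets. Without overlap 4 of the 12 were higher and 2 lower, beside 9.79% and 11.2% of all probesets.
Anxa2, the partner of S100a10, had 3855, 4523 and 4544 in controls and 4846, 4760 and 5130 after tamoxifen. The groups did not overlap, with a log2 difference of 0.19 (SE 0.09, adjusted p = 0.456), while S100a10 itself had 0.07. Anxa11, a partner of S100a6, had a log2 difference of 0.28 (adjusted p = 0.287), and Anxa9 one of -0.37 (adjusted p = 0.186), both without overlap. Anxa1, the partner of S100a11, had 0.11 (adjusted p = 0.692).
Of 7 measured receptors of extracellular S100 proteins 0 rose and 0 fell by limma, with a median of 0.08. Without overlap 3 were higher, Cd36 and Mcam among them, and 1 was lower, beside 9.79% and 11.2% of all probesets. By the unadjusted p of 0.05 Cd36 and Mcam were higher and Tlr4 lower, beside 6.55% and 5.87% of all probesets. Tlr4, a receptor for calprotectin, was lower without overlap, at 684, 802 and 755 in controls and 572, 608 and 633 after tamoxifen (log2 difference -0.30, SE 0.09, adjusted p = 0.258). Ager, which encodes RAGE, had a log2 difference of -0.01 with a 95% interval of -0.23 to 0.20. Cd36, a scavenger receptor gene, had 0.24 (adjusted p = 0.305) and Mcam, an adhesion molecule gene, 0.28 (adjusted p = 0.326).
Of 14 measured genes of other partners 0 rose and 0 fell by limma, with a median of 0.03. Without overlap 2 were higher and 1 lower, beside 9.79% and 11.2% of all probesets. At an unadjusted p of 0.05 Il1a was higher and Trpv6 lower, beside 6.55% and 5.87% of all probesets. Il1a, the cytokine whose release S100a13 aids, had 708, 926 and 1042 in controls and 1621, 2439 and 1942 after tamoxifen. The groups were well apart, with a log2 difference of 1.16 (SE 0.20, adjusted p = 0.0958). The adjusted p was under the threshold in 3 of 15 alternatives, down to 0.0237 with array weights, and above it in 12. It was 0.272 by the methods' t-test, 0.119 with the replicate number as a block and 0.160 to 0.311 with 1 array left out. Fgf1, the other cargo of S100a13, had 0.08 (interval -0.10 to 0.26). Myh9, the non-muscle myosin bound by S100a4, had -0.01 (interval -0.19 to 0.16), and Cacybp, the calcyclin binding protein gene, had 0.00 (interval -0.16 to 0.16). Ahnak, a scaffold of the S100a10 complex, had 0.35 (interval -0.14 to 0.84). Trpv6, a calcium channel gene whose product S100a10 helps to reach the membrane, had -0.39 (adjusted p = 0.360), and Pygm, the muscle glycogen phosphorylase gene, 0.32 (adjusted p = 0.402).

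**Figure D4:**
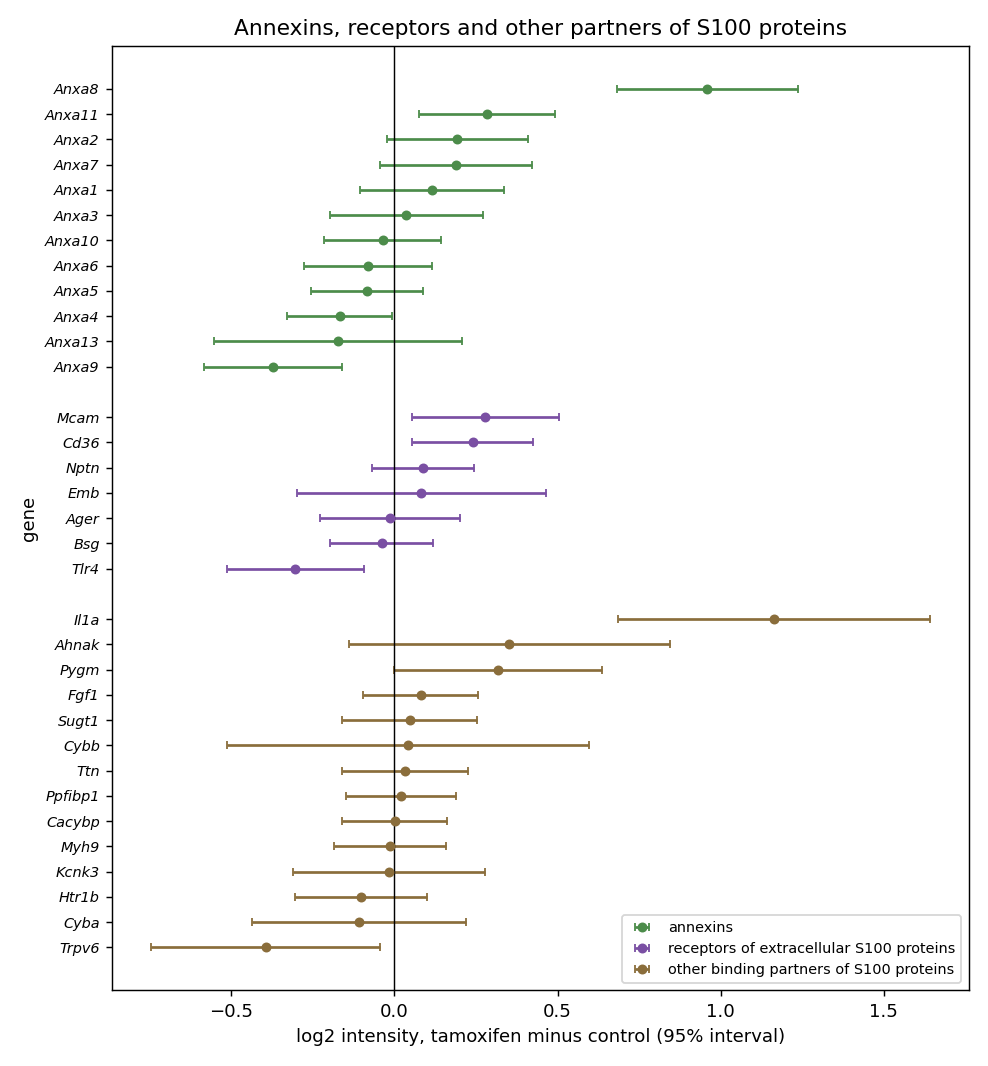
Log2 difference in intensity, tamoxifen minus control, with its 95% interval from the limma fit, for 12 annexins (green), 7 receptors of extracellular S100 proteins (purple) and 14 other binding partners (brown), each list sorted by its difference. Anxa8 and Il1a have the largest values of their lists, 0.96 and 1.16, and their intervals lie above 0.

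The genes whose level over the 6 arrays was most like that of S100a14 were Spcs2, a signal peptidase subunit gene, Abhd17c, a depalmitoylase gene, Bmpr1b, a receptor for bone morphogenetic proteins, Aif1l and Tspan5. Pearson correlations of log2 intensity with S100a14 were 0.9973, 0.9969, 0.9965, 0.9936 and 0.9934 over 6 arrays, chosen as the highest of all named genes and given with no test. All arrays share the split into groups, which makes up most of each correlation. The log2 differences of these genes were -0.35, -0.53, -0.76, -0.37 and -0.12, each smaller in size than that of S100a14. With the group means taken off, a different set came first, Sfi1, Exd2, Olfr1161, Ift81 and 4930597A21Rik, with correlations of 0.9949 to 0.9828. Their log2 differences lay between -0.34 and -0.02.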

How the data were processed

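RNA from 3 control and 3 tamoxifen pools of MECs was measured on Affymetrix mouse arrays, which the series text calls Exon and the methods Gene 1.0 ST arrays. The authors deposited linear probeset intensities, 1 value per probeset and array. MAS5 and mm9 are named in the submitters' processing notes, though not what each was used for. How background was corrected and arrays were normalized is not given in the sources used here. Of 22369 probesets, 18286 had 1 gene symbol, 1276 several and 2807 none. Where a gene had more than 1 probeset, the one with the highest mean over the arrays was used. Names and gene order were checked in the RefSeq table of GRCm38.p6, where the Entrez IDs of 18097 probesets with 1 symbol were found.

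The log2 intensities, with neither offset nor filter, were fitted with limma 3.58.1 in R 4.3.3 (lmFit and eBayes, group as the only term, 4 residual and 2.35 prior degrees of freedom). P-values are two-sided and adjusted over all probesets by the Benjamini-Hochberg method. The fit was tested on simulated data. Figures were drawn in Python 3.11.15 with matplotlib 3.10.9. The equal-variance t-test on log2 values is called the methods' t-test, since the paper names Student's t-test in general. P-values set the difference between the groups against the spread of the pools within them, which limma moderates with that of all probesets. The number of arrays limits the precision.

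The members, gene lists and tests were chosen with earlier results of these data known. Named genes are all members, from each other list up to 3 genes with the smallest p and any past the threshold, up to 3 neighbours on each side of a member, and the 5 genes most like S100a14. Anxa1, Anxa2, Ager, Fgf1, Myh9, Cacybp, Ahnak and single markers were added, after their values were seen, for their known link to a member or cell type. The lists were other S100 genes, S100-fused type proteins, annexins, receptors, other partners, cornified envelope genes and markers of 14 kinds of cell or state.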

Additional observations from a re-analysis of the deposited data

How the results depend on the processing

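The S100 genes were refitted under 15 alternatives and 1 more chosen after seeing the data, in which control 1 and tamoxifen 2 were both left out. The filter at the median intensity leaves out S100a4, S100a8, S100a9 and S100a14, and that at the 25th percentile S100a9. S100a14 kept its direction in all others, down to -0.74 with an offset of 32. The log2 difference of -0.94 lost its call by the methods' t-test (adjusted p = 0.118) and with the replicate number as a block (-0.94, adjusted p = 0.0829), with any 1 array left out (-1.0001 to -0.8835) and with both arrays left out (-0.905, adjusted p = 0.171). The count of S100 genes lower was then 0, as it was above the median intensity, and the count higher was 0 in every alternative. S100a6 and S100a8 turned to -0.0526 and -0.0670 without control 1 (up to 0.24 and 0.34 with 1 array left out), and S100a1 and S100a6 to -0.0196 and -0.0754 with both arrays left out. S100a4 stayed between 0.54 and 0.86, with an adjusted p of 0.0716 to 0.343 over the 14 alternatives it was in that were not added later.

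At an adjusted p of 0.05 limma called 63 probesets higher and 24 lower. The counts were 15 and 2 by the methods' t-test, 136 and 54 with a variance trend and robust estimation, 356 and 163 with array weights, 106 and 38 above the 25th percentile of intensity, 129 and 65 above the median, 116 and 45 with an offset of 32, 13 and 2 with the replicate block, 18 to 27 and 2 to 6 with 1 array left out, and 4 and 0 with both left out. The cause was not tested. Same-numbered pools deviated with correlations of 0.0541, 0.00722 and -0.0424, so the numbers were not taken to pair them, and the lost calls under the block are not read as weaker effects. Quantile normalization and median centring moved the median of all probesets by 0.01 and 0.02 and turned no S100 gene. The SEs of S100a8 and S100a9, 0.23 and 0.22, were the largest of the 8 genes.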

Other observations

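Other genes near the S100 cluster encode proteins of the cornified cell envelope, the protein shell of stratified epithelia. The list of cornified envelope genes used here was not limited to that region. Of its 12 measured genes 0 rose and 0 fell by limma at an adjusted p of 0.05, with a median log2 difference of 0.05. Without overlap 2 were higher and 1 lower, beside 9.79% and 11.2% of all probesets. At an unadjusted p of 0.05 Sprr4 was higher and Sprr1a lower, beside 6.55% and 5.87% of all probesets. Sprr1a, a cross-linked envelope protein gene, had 2712, 4175 and 4351 in controls and 2496, 2490.2 and 2826 after tamoxifen, a log2 difference of -0.50 (adjusted p = 0.373). Control 1 lay among the tamoxifen pools, and without it the difference was -0.71. Sprr4 was higher without overlap (log2 difference 0.34, adjusted p = 0.306) and dim, at 50.0 in controls. Of 4 measured S100-fused type proteins, large skin proteins that begin with an S100 domain, 0 rose and 0 fell, and Rptn, the 1 gene past an unadjusted p of 0.05, had a log2 difference of -0.45 (adjusted p = 0.364).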
